A study of Mus musculus with 8 samples.

Results

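The 10 genes Bcat2, Bckdha, Bckdhb, Dbt, Bckdk, Ppm1k, Ivd, Mccc1, Mccc2 and Hibadh of branched-chain amino acid breakdown were followed in epididymal white adipose tissue of mice. They were chosen by name for their place in the pathway, with earlier results of these data known. Shares of all tested genes given beside their counts are therefore a description, not a test of the 10 as a set. All 10 were found among the 18691 genes in the files and among the 14257 genes tested. The tissue came from C57BL/6J mice aged 16 weeks, in 4 libraries labelled Mrp4 KO (Mrp4-/-), numbered 1, 2, 4 and 5, and 4 libraries labelled WT, numbered 1 to 4. Mrp4 is a membrane exporter encoded by Abcc4, and the labels name no other allele and no treatment. They do not give the structure of the Mrp4 allele, the cells in which it acts or whether each library is a separate mouse, so p-values measure the spread between these libraries.

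Leucine, isoleucine and valine are broken down in mitochondria, and adipose tissue is known as one of the places where this happens. BCAT2, the mitochondrial aminotransferase, turns each of them into its 2-oxoacid. The branched-chain 2-oxoacid dehydrogenase complex then makes an acyl-CoA in a step that cannot be reversed. BCKDK, a kinase, turns this complex off by phosphorylation, and PPM1K, a phosphatase, turns it on again. After it the routes part, with IVD and the 2 subunits of methylcrotonyl-CoA carboxylase, MCCC1 and MCCC2, acting on leucine and HIBADH acting on valine.

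In the Mrp4 KO libraries 7 of the 10 genes fell and none rose, nor did any rise at an unadjusted p under 0.05 or with DESeq2. A gene was counted as lower when its adjusted p was under 0.05 in the quasi-likelihood test of edgeR, adjusted by Benjamini and Hochberg's method over all tested genes, a rule that 8.05% of them met. The share of tested genes that were higher was 10.2%, and 18.3% passed in either direction. The 7 were Bcat2, the complex subunits Bckdha, Bckdhb and Dbt, the kinase gene Bckdk, and Ivd and Mccc2 of the leucine branch. Mccc1, Hibadh and Ppm1k did not pass. The median log2 fold change of Mrp4 KO over WT was -0.43 over the 10 genes, beside -0.003 over all tested genes. The FPKM of 6 genes (Bckdha, Bckdhb, Dbt, Bckdk, Ivd and Mccc2) was lower in every Mrp4 KO library than in every WT library, a pattern found in 7.08% of the tested genes. FPKM counts fragments per unit length of transcript, relative to the depth of the library.

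Facts of the libraries bear on these values. Each library held between 14064681 and 14700114 expected counts. Abcc4 averaged 3.605 ± 0.2437 FPKM in Mrp4 KO libraries and 3.515 ± 0.2317 FPKM in WT libraries (SD, n = 4 each), so the level of its transcript did not separate the labelled groups. Its log2 fold change was -0.05 ± 0.08 (SE, adjusted p = 0.692, edgeR). Of all genes called, 55.9% were higher in Mrp4 KO, and with library size alone as the scaling 74.1% were. The 20 liver markers listed here were all higher in Mrp4 KO, none of them at 0 in every library, with a summed level of 956.6 to 1850 FPKM in Mrp4 KO libraries and 71.49 to 171.1 FPKM in WT libraries. Liver transcripts therefore moved with the labels, and their part in the changes below was not tested. With those 20 genes left out of the fit, 7 of the 10 breakdown genes were again lower, as were 1097 of the 14237 genes tested. That fit leaves the counts of all other genes as they were, so it cannot show what liver RNA adds to them. RefSeq places another gene over 6 of the 10, namely 0610005C13Rik over Bcat2, Gm29163 and Gm46124 over Bckdhb, Gm4596 over Dbt, 4930533I22Rik over Ppm1k, Mccc1os over Mccc1, and Gm33047 and LOC115490472 over Hibadh. No use of strand is stated, so reads of such pairs may not be told apart.

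**Figure D1:**
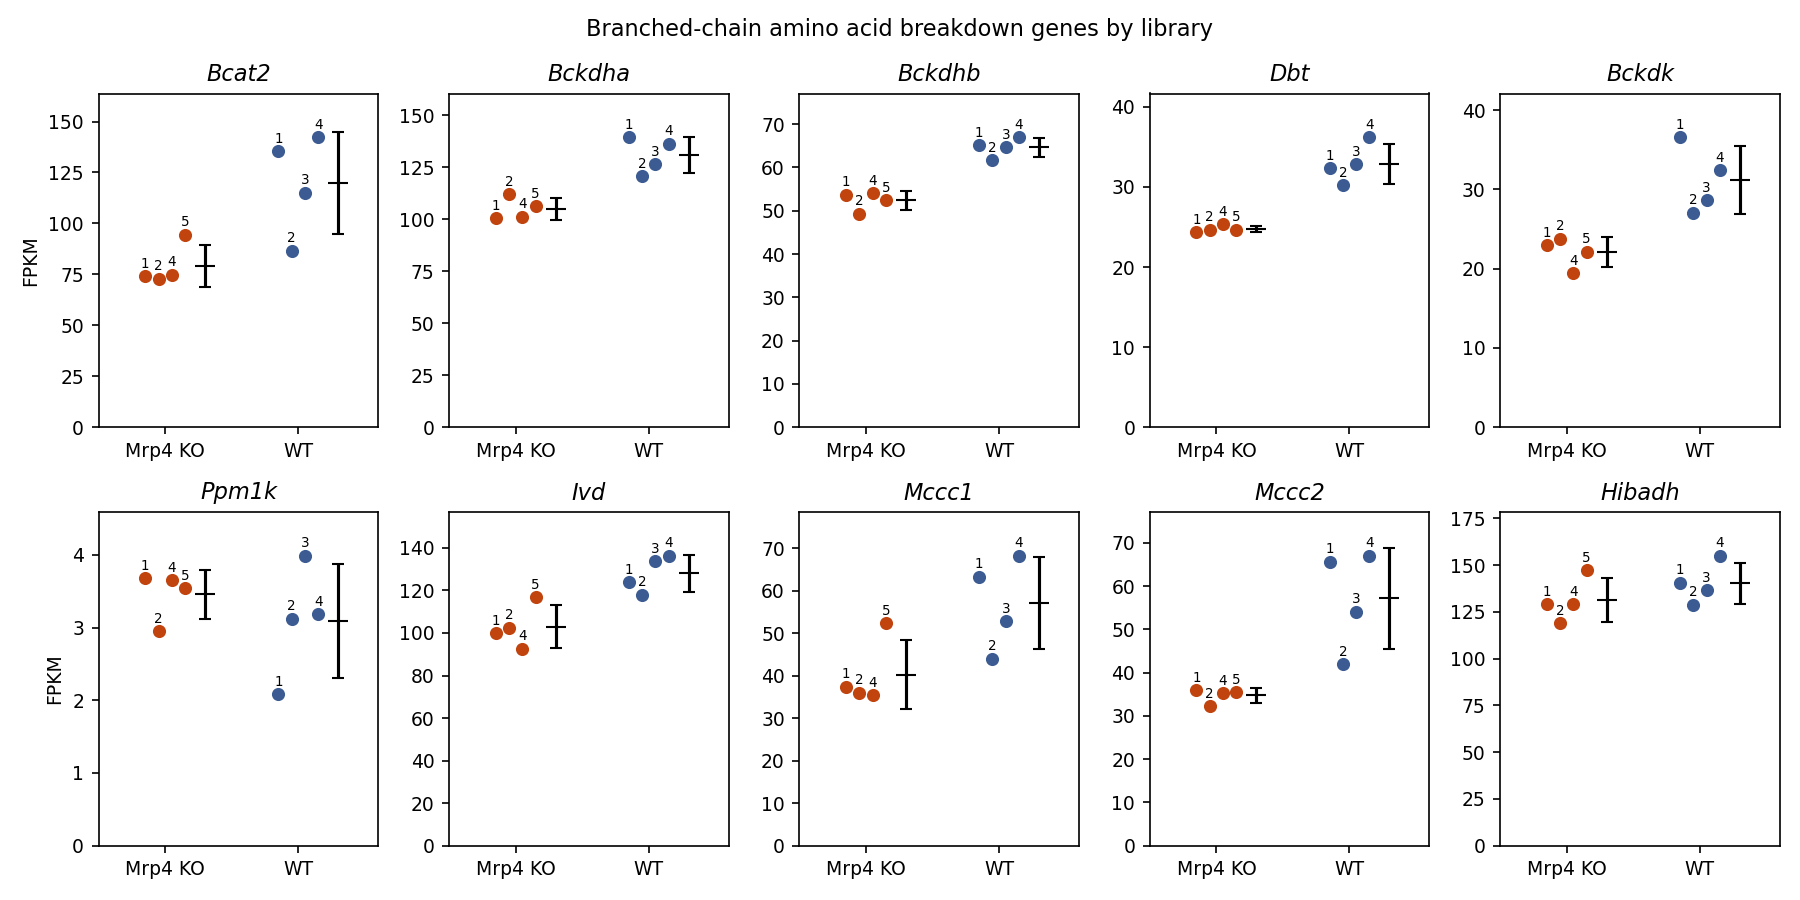
FPKM (vertical axes, from 0) of the 10 genes in the Mrp4 KO libraries (orange) and the WT libraries (blue), each point a library with its replicate number; the dash and bar beside the points are the mean and SD of 4 libraries. The points of Bckdha, Bckdhb, Dbt, Bckdk, Ivd and Mccc2 do not overlap between the groups, and those of Bcat2, Ppm1k, Mccc1 and Hibadh do.

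Bcat2, the entry to the pathway, had 74.21, 72.94, 74.88 and 94.48 FPKM in Mrp4 KO libraries 1, 2, 4 and 5, against 135.31, 86.54, 115.05 and 142.39 FPKM in WT libraries 1, 2, 3 and 4. Mrp4 KO library 5 was the highest of its group and lay above WT library 2, so the groups overlapped in that pair alone. Ratios of Mrp4 KO over WT here and below come from counts as scaled by edgeR, and can differ from ratios of the FPKM listed. The level in Mrp4 KO was 0.63 times that in WT (95% interval 0.487 to 0.815), a log2 fold change of -0.67 ± 0.17 (SE, adjusted p = 0.0268, edgeR). This call rests on the full set of libraries. It was lost when any 1 of Mrp4 KO libraries 1, 2 and 4 or of WT libraries 1, 3 and 4 was left out, with a log2 fold change between -0.81 and -0.56 over the 8 fits that each leave out a library.

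The 3 subunits particular to the branched-chain dehydrogenase complex fell, with adjusted p-values that stayed under 0.05 whichever library was left out. Bckdha, the alpha subunit of the decarboxylase and the one that the kinase phosphorylates, had 100.31, 111.83, 101.23 and 106.33 FPKM in Mrp4 KO libraries, against 139.44, 120.72, 126.41 and 136.19 FPKM in WT libraries. Bckdhb, its beta subunit, had 53.71, 49.31, 54.13 and 52.43 FPKM in Mrp4 KO libraries, against 65.09, 61.74, 64.67 and 67.04 FPKM in WT libraries. Dbt, the transacylase that forms the core, had 24.34, 24.68, 25.33 and 24.68 FPKM in Mrp4 KO libraries, against 32.31, 30.21, 32.88 and 36.24 FPKM in WT libraries. Every Mrp4 KO library lay below every WT library for each subunit, and the Mrp4 KO values of Dbt lay within about 1 FPKM of each other. The log2 fold changes were -0.38 ± 0.08 for Bckdha (adjusted p = 0.0126), -0.37 ± 0.06 for Bckdhb (adjusted p = 0.00623) and -0.48 ± 0.07 for Dbt (adjusted p = 0.00334), by edgeR with SE. As ratios of Mrp4 KO over WT these were 0.768, 0.776 and 0.719. The subunit that the complex shares with its relatives, Dld, is not among the 10 genes and did not pass (log2 fold change -0.36, adjusted p = 0.0615, edgeR). Its change was close in size to those of Bckdha and Bckdhb. Dld passed with DESeq2 and, in edgeR, without WT library 2 (adjusted p = 0.0196). Summed over Bckdha, Bckdhb and Dbt, the level was 178.4 to 185.8 FPKM in Mrp4 KO libraries and 212.7 to 239.5 FPKM in WT libraries. In whole tissue, fewer cells of a type and less RNA per cell cannot be told apart.

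The kinase gene fell with the complex that its product turns off, while the phosphatase gene did not pass the test. Bckdk had 22.98, 23.79, 19.41 and 22.16 FPKM in Mrp4 KO libraries, against 36.62, 27.09, 28.67 and 32.46 FPKM in WT libraries. Its groups did not overlap, and WT library 1 was the highest. The log2 fold change of Bckdk was -0.57 ± 0.11 (SE, adjusted p = 0.0101, edgeR), or 0.675 times the WT level with a 95% interval of 0.571 to 0.798, and the call held in each of the 8 fits without a library. Ppm1k, at a much lower level, had 3.68, 2.95, 3.65 and 3.54 FPKM in Mrp4 KO libraries, against 2.08, 3.12, 3.99 and 3.18 FPKM in WT libraries. WT libraries 1 and 3 held both the lowest and the highest Ppm1k value, so the WT spread contained the Mrp4 KO values. The ratio of Mrp4 KO over WT for Ppm1k was 1.07 with a 95% interval of 0.821 to 1.39 (adjusted p = 0.722, edgeR), and the log2 fold change of 0.09 ± 0.17 (SE) turned to -0.05 without WT library 1.

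In the leucine branch Ivd and Mccc2 fell and Mccc1 fell short of the threshold. Ivd, whose product is isovaleryl-CoA dehydrogenase, had 99.78, 102.50, 92.70 and 116.80 FPKM in Mrp4 KO libraries, against 124.02, 117.95, 133.93 and 136.43 FPKM in WT libraries. The groups of Ivd did not overlap, but Mrp4 KO library 5 and WT library 2 were close to each other. Its log2 fold change was -0.38 ± 0.09 (SE, adjusted p = 0.0244, edgeR), and the call was lost without Mrp4 KO library 1, 2 or 4 or WT library 3 or 4.

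Mccc2, the beta subunit of methylcrotonyl-CoA carboxylase, had the lowest ratio of the 10 genes. It had 35.91, 32.18, 35.29 and 35.48 FPKM in Mrp4 KO libraries, against 65.64, 41.97, 54.06 and 67.07 FPKM in WT libraries. The 4 Mrp4 KO values lay close together and the WT values were spread, with WT library 2 nearest to the Mrp4 KO group. The ratio of Mrp4 KO over WT was 0.58 (95% interval 0.463 to 0.726), with a log2 fold change of -0.79 ± 0.14 (SE, adjusted p = 0.00917, edgeR) that passed in each of the 8 fits without a library. Mccc1, the alpha subunit that carries biotin, had 37.39, 36.00, 35.36 and 52.35 FPKM in Mrp4 KO libraries, against 63.35, 43.99, 52.80 and 68.30 FPKM in WT libraries. Mrp4 KO library 5 lay above WT library 2 and just under WT library 3. The log2 fold change of Mccc1 was -0.57 ± 0.18 (SE, adjusted p = 0.051, edgeR), with an adjusted p of 0.0243 without Mrp4 KO library 5, 0.0184 without WT library 2 and 0.0135 with DESeq2, and a range of 0.0184 to 0.128 over the 8 fits without a library.

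Hibadh, the 3-hydroxyisobutyrate dehydrogenase of the valine branch, was the most abundant of the 10 genes in all 8 libraries. It had 129.20, 119.02, 129.28 and 147.48 FPKM in Mrp4 KO libraries, against 140.61, 128.91, 136.48 and 155.16 FPKM in WT libraries. The groups overlapped widely, with Mrp4 KO library 5 above 3 of the WT libraries. The ratio of Mrp4 KO over WT was 0.895 with a 95% interval of 0.773 to 1.04 (adjusted p = 0.259, edgeR), so that both no change and a modest decrease lie within the interval.

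**Figure D2:**
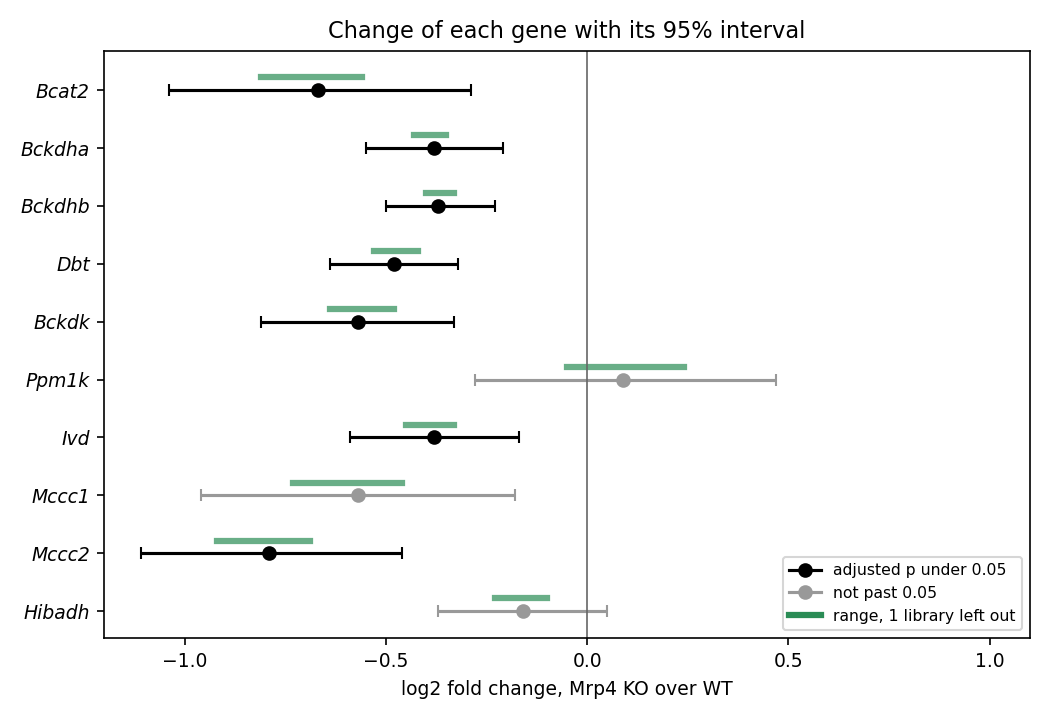
Log2 fold change of Mrp4 KO over WT (horizontal axis) for each gene, with points and 95% intervals from edgeR in black where the adjusted p was under 0.05 and grey where it was not; the green bar spans the 8 fits that each leave out a library. The interval of Mccc1 lies below 0 although its adjusted p was 0.051, and the green bar crosses 0 for Ppm1k alone.

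The order of levels within a library was much the same in both groups. Hibadh came first and Ppm1k last in each of the 8 libraries. Bckdha, Ivd and Bcat2 held the next places, followed by Bckdhb, Mccc1 and Mccc2 and then by Dbt and Bckdk. Neighbours changed places between libraries. In the Mrp4 KO group Bckdha and Ivd alone did so, and the other genes kept their order in every library. In the WT group all genes within each of these sets of neighbours changed places, so the order within a set was not fixed there.

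The libraries were not equal within a group. WT library 2 was the lowest of the WT group for 9 of the 10 genes, the exception being Ppm1k, and WT library 4 was the highest for 7. Mrp4 KO library 5 was the highest of its group for 4 genes, Bcat2, Ivd, Mccc1 and Hibadh. Mrp4 KO library 2 was the lowest for 5 genes. Summed over the 10 genes, the level was 581.5, 575.2, 571.3 and 655.7 FPKM in Mrp4 KO libraries, against 804.5, 662.2, 748.9 and 844.5 FPKM in WT libraries. WT library 2 thus stood nearest to the Mrp4 KO group, and Mrp4 KO library 5 nearest to the WT group, with sums that almost met. Without WT library 2, 8 of the 10 genes passed as lower, beside 1706 of all 14426 genes tested in that fit. Without Mrp4 KO library 5 it was also 8, beside 553 of 14370.

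**Figure D3:**
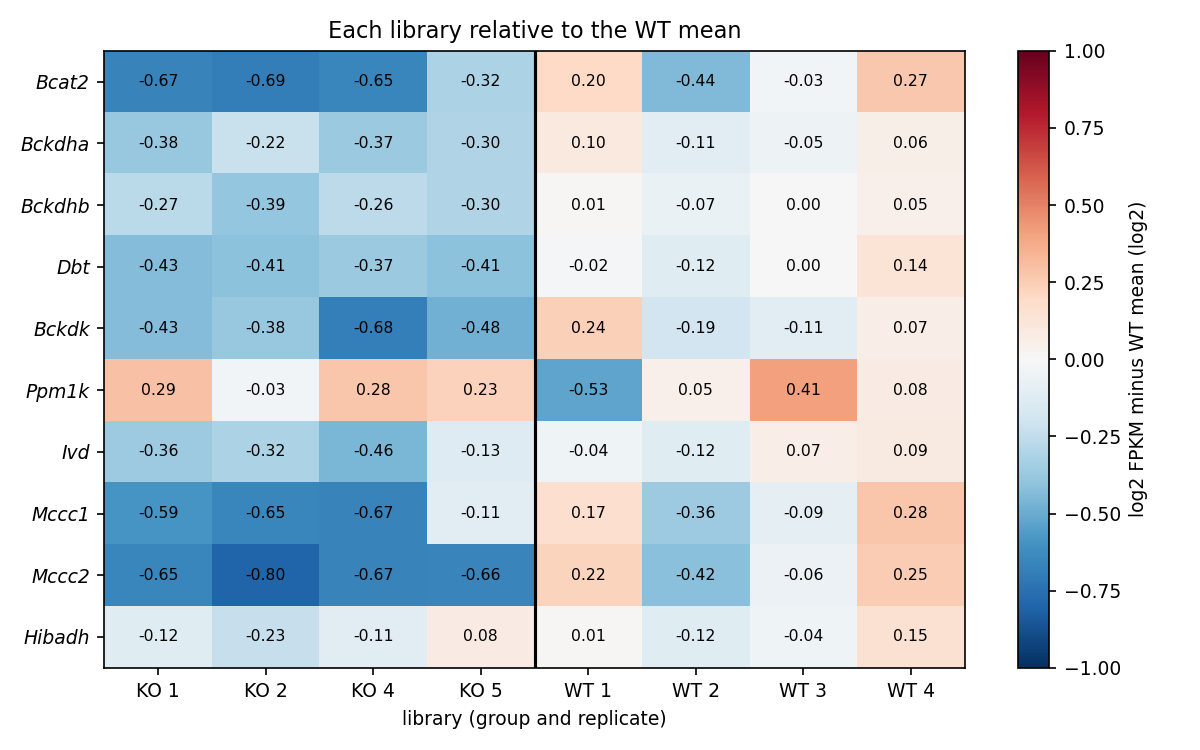
Log2 FPKM of each gene (rows) in each library (columns, Mrp4 KO left of WT) minus the mean of the WT libraries, with blue for lower and red for higher values and the value printed in each cell. In the Mrp4 KO libraries Hibadh in library 5 and Ppm1k in libraries 1, 4 and 5 are above 0 and the rest are below it; WT library 2 is below 0 for every gene but Ppm1k.

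Ratios between genes within a library, which do not depend on the scaling between libraries, were compared for 4 pairs with exact two-sided permutation tests on the log2 ratio. With 4 against 4 libraries no p below 0.0286 can be had. The ratio of Bckdk to Ppm1k, kinase over phosphatase, was 6.24, 8.06, 5.32 and 6.26 in Mrp4 KO libraries, against 17.6, 8.68, 7.19 and 10.2 in WT libraries. Mrp4 KO library 2 lay above WT library 3, and the log2 difference of Mrp4 KO minus WT was -0.69 (exact permutation p = 0.0571, adjusted over the 4 pairs p = 0.171). The ratio of Bckdk to Bckdha, kinase over its substrate, was 0.229, 0.213, 0.192 and 0.208 in Mrp4 KO libraries, against 0.263, 0.224, 0.227 and 0.238 in WT libraries. Its groups overlapped through Mrp4 KO library 1, with a log2 difference of -0.18 (exact permutation p = 0.0857, adjusted p = 0.171). Neither ratio passed at this number of libraries.

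The subunit ratios gave no difference past the threshold either. The ratio of Bckdhb to Bckdha was 0.501 ± 0.0447 in Mrp4 KO libraries and 0.496 ± 0.0212 in WT libraries (SD, n = 4 each, exact permutation p = 0.914, adjusted p = 0.914). That of Mccc2 to Mccc1 was 0.96, 0.894, 0.998 and 0.678 in Mrp4 KO libraries, against 1.04, 0.954, 1.02 and 0.982 in WT libraries. Mrp4 KO library 5, where Mccc1 was high, stood apart, and the log2 difference was -0.19 (exact permutation p = 0.143, adjusted p = 0.19).

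**Figure D4:**
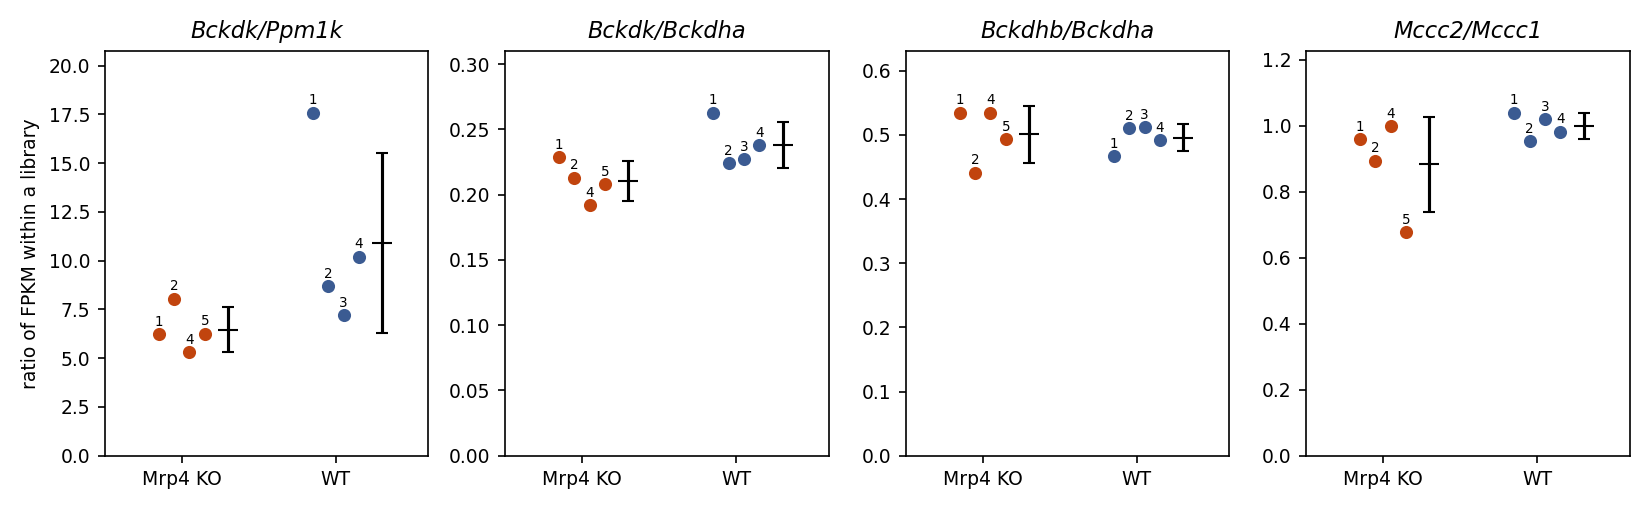
Ratio of FPKM within each library (vertical axes, from 0) for 4 pairs of genes in Mrp4 KO libraries (orange) and WT libraries (blue), numbered by replicate, with mean and SD beside them. The groups overlap in all 4 panels; the nearest to a gap are Bckdk over Ppm1k and Bckdk over Bckdha.

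RefSeq promoter windows on GRCm38.p6, from 250 bases before to 50 bases after the start of transcription, were found for 9 of the 10 genes (11 windows in all), Dbt having no entry. The CCAAT box, searched as CCAAT on both strands, lay in 8 of these 11 windows and in 37.4% of all 32851 windows. Among the genes with a match were the 3 of the leucine branch, whose windows are shown because each holds at least 3. They also included Ppm1k and Hibadh, which did not pass the test, while the windows of Bcat2 and Bckdha, which fell, held none. The GC box GGGCGG lay in 4 of the 11 windows and in 35.7% of all windows, the E-box CACGTG in 1 and in 7.15%, and the nuclear receptor motif AGGTCA in 3 and in 16.3%. No match of these motifs overlapped a match of another. A match of letters is a description and does not show a bound site. Ivd lies at chr2:118861744-118862043 on the plus strand, Mccc1 at chr3:36000629-36000928 and Mccc2 at chr13:100015590-100015889, both on the minus strand. The sequences run from 5′ to 3′ along the gene, with CCAAT and its complement ATTGG in capitals. In Mccc2 a CCAAT and an ATTGG share bases.
Ivd: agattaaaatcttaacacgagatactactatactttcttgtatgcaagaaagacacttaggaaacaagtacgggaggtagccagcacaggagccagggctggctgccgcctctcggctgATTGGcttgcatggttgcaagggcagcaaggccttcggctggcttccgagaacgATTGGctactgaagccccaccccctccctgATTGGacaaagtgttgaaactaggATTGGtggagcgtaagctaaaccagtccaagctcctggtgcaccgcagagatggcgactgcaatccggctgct
Mccc1: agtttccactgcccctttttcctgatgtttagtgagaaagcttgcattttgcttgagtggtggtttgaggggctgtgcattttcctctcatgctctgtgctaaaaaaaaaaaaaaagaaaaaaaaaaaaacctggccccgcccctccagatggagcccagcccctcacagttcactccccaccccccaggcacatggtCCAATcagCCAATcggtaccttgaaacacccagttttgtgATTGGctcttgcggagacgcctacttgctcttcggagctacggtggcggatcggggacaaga
Mccc2: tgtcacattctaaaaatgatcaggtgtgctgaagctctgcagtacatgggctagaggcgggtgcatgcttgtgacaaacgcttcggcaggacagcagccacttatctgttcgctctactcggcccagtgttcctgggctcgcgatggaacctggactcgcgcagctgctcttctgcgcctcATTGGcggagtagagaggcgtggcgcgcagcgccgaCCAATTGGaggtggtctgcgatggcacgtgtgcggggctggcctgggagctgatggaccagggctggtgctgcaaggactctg

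Of 29 other genes of branched-chain breakdown, 9 fell, 1 rose and 19 did not pass, with a median log2 fold change of -0.26 and 24 below 0. The list holds enzymes shared with fatty acid oxidation, so it is not particular to these amino acids. Hsd17b10, which acts in the isoleucine route, averaged 63.95 ± 2.741 FPKM in Mrp4 KO libraries and 89.65 ± 13.03 FPKM in WT libraries (SD, n = 4 each), with a log2 fold change of -0.55 (adjusted p = 0.0115, edgeR). Hadh averaged 172.4 ± 10.76 FPKM in Mrp4 KO libraries and 221.4 ± 19.94 FPKM in WT libraries, with a log2 fold change of -0.42 (adjusted p = 0.016, edgeR). Echs1, the short-chain enoyl-CoA hydratase, had a log2 fold change of -0.55 (adjusted p = 0.0202, edgeR), and Aldh2, a mitochondrial aldehyde dehydrogenase, -0.47 (adjusted p = 0.0266, edgeR). Of the 10 genes called, Hsd17b10 and Hadh passed in each of the 8 fits without a library and the other 8 did not. The gene that rose was Abat, the 4-aminobutyrate aminotransferase, with a log2 fold change of 0.81 (adjusted p = 0.0445, edgeR). Bcat1, the cytosolic aminotransferase, did not pass, with a log2 fold change of 0.84. Abat, Bcat1 and Dld were named after their values were seen.

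Of 10 transporters of these amino acids 9 were tested, of which 3 fell, 2 rose and 4 did not pass. Slc25a44, the mitochondrial carrier of branched-chain amino acids, averaged 21.37 ± 1.432 FPKM in Mrp4 KO libraries and 27.84 ± 2.264 FPKM in WT libraries (SD, n = 4 each), with no overlap. Its log2 fold change was -0.45 ± 0.08 (SE, adjusted p = 0.00836, edgeR), and it was the only one of the 5 to pass in each of the 8 fits without a library. Among the transporters of the plasma membrane, log2 fold changes were -0.81 for Slc43a1 (adjusted p = 0.0315), -0.31 for Slc7a6 (adjusted p = 0.0404) and 0.61 for Slc7a8 (adjusted p = 0.0402), by edgeR. The second that rose, Slc43a2, had 0.26 (adjusted p = 0.0469, edgeR), and so the transporters of the plasma membrane went both ways.

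Of 15 genes of the related 2-oxoacid dehydrogenase complexes and their regulators, 7 fell, 1 rose and 7 did not pass, with a median log2 fold change of -0.36. Pdhb, a subunit of pyruvate dehydrogenase, averaged 81.86 ± 4.556 FPKM in Mrp4 KO libraries and 182.7 ± 79.66 FPKM in WT libraries (SD, n = 4 each), with a log2 fold change of -1.22 (adjusted p = 0.0148, edgeR). Pdhx, which binds the third enzyme to that complex, had -0.77 (adjusted p = 0.0183), Pdk2, one of its kinases, -0.54 (adjusted p = 0.0248) and Pdpr, a regulator of its phosphatase, -0.44 (adjusted p = 0.025), by edgeR. The gene that rose was Ogdhl, a relative of the 2-oxoglutarate dehydrogenase gene, with 1.28 (adjusted p = 0.0269, edgeR). Its level was low, at a mean of 0.83 FPKM in Mrp4 KO libraries and 0.325 FPKM in WT libraries. Of the 8 genes called, Pdhb and Pdhx passed whichever library was left out.

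Of 23 genes taken to follow mitochondrial content, 12 fell and 11 did not pass, with a median log2 fold change of -0.39, near the -0.43 of the 10 breakdown genes. Their summed level was 2508 to 2892 FPKM in Mrp4 KO libraries and 2838 to 3812 FPKM in WT libraries, WT library 2 again being the lowest of its group. Cs, citrate synthase, had a log2 fold change of -0.80 (adjusted p = 0.0149), Hspa9, a mitochondrial chaperone, -0.64 (adjusted p = 0.0169), Phb2, a prohibitin, -0.55 (adjusted p = 0.0134) and Sdha, of succinate dehydrogenase, -0.52 (adjusted p = 0.0197), by edgeR. Of the 12, Cs, Hspa9 and Phb2 passed whichever library was left out. The part of mitochondrial content in the fall of the breakdown genes was not tested.

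Of 6 genes around biotin, the cofactor of MCCC1, 4 fell and 2 did not pass, and the 4 passed whichever library was left out. Acaca, the acetyl-CoA carboxylase of fatty acid synthesis, averaged 43.84 ± 4.536 FPKM in Mrp4 KO libraries and 269.9 ± 149 FPKM in WT libraries (SD, n = 4 each), with a log2 fold change of -2.70 (adjusted p = 0.0024, edgeR). Acacb, its mitochondrial counterpart, had -1.60 (adjusted p = 0.00607), Slc5a6, a carrier of biotin into cells, -1.43 (adjusted p = 0.00524) and Pcx, pyruvate carboxylase, -1.16 (adjusted p = 0.0116), by edgeR.

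Of 9 genes for factors described as regulating the pathway or mitochondria, 4 fell and 5 did not pass. Mlxipl, which encodes ChREBP, averaged 26.84 ± 5.228 FPKM in Mrp4 KO libraries and 64.22 ± 21.82 FPKM in WT libraries (SD, n = 4 each), with a log2 fold change of -1.33 (adjusted p = 0.00851, edgeR). Srebf1, a regulator of lipid synthesis, had -1.12 (adjusted p = 0.00702, edgeR), and the coactivators Ppargc1a and Ppargc1b had -1.02 (adjusted p = 0.0118, edgeR) and -1.04 (adjusted p = 0.0481, edgeR). Both coactivators were at a low level. Ppargc1a averaged 0.655 FPKM in Mrp4 KO libraries and 1.265 FPKM in WT libraries, and Ppargc1b 1.212 and 2.377 FPKM. Ppargc1b lost its call without any 1 of 6 libraries and under 7 other settings, and the other 3 lost theirs in none of the 8 fits without a library. The 5 that did not pass were Klf15, Esrra, Ppara, Pparg and Atf4. Their log2 fold changes were -0.35, -0.13, -0.12, -0.03 and -0.02, in that order. Adjusted p-values were 0.197, 0.495, 0.581, 0.936 and 0.872 (edgeR).

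**Figure D5:**
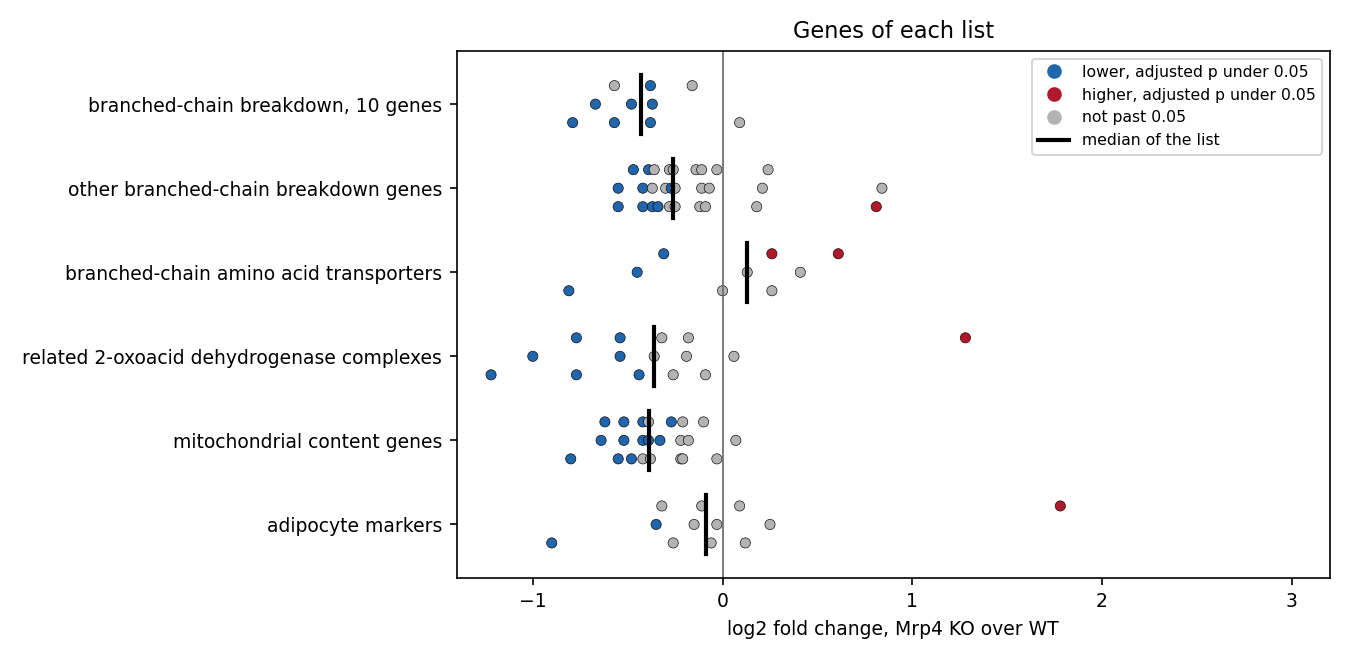
Log2 fold change of Mrp4 KO over WT (horizontal axis) of each gene in 6 lists, blue and red where the adjusted p was under 0.05, with the median of each list as a black line. The breakdown genes lie mostly below 0 as do the mitochondrial content genes (medians -0.43 and -0.39), the transporters lie on both sides of 0, and most adipocyte markers are near it.

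The labelled tissue showed its markers. Of 12 adipocyte markers 2 fell, 1 rose and 9 did not pass, and their summed level was 23140 to 29770 FPKM in Mrp4 KO libraries and 21300 to 26300 FPKM in WT libraries. Plin1, which coats lipid droplets, had a log2 fold change of -0.35 (adjusted p = 0.0217), the hormone gene Retn -0.90 (adjusted p = 0.00737) and the hormone gene Lep 1.78 (adjusted p = 0.0191), by edgeR. Retn passed whichever library was left out, and Plin1 and Lep each lost the call in 4 of the 8 fits, Plin1 without Mrp4 KO library 1, 2 or 4 or WT library 4 and Lep without Mrp4 KO library 5 or WT library 1, 3 or 4. Fabp4, which made up much of these sums, averaged 11970 FPKM in Mrp4 KO libraries and 10600 FPKM in WT libraries. Macrophage markers were higher for 5 of 10 and lower for none, with sums of 1211 to 1834 FPKM in Mrp4 KO libraries and 1039 to 1251 FPKM in WT libraries. Mpeg1, Itgax and Ctss of these 5 passed whichever library was left out. Endothelial markers were higher for 4 of 6 and lower for none, with sums of 393.1 to 420.5 FPKM in Mrp4 KO libraries and 228.1 to 338.3 FPKM in WT libraries. Cdh5 and Tie1 of these 4 passed whichever library was left out. Of 7 progenitor and fibroblast markers Dpt, Col1a1 and Col3a1 were higher, with log2 fold changes of 0.61, 0.65 and 0.43, and Dcn was lower, with -0.61; Col3a1 lost its call in 4 of the 8 fits, without Mrp4 KO library 1 or 2 or WT library 1 or 3. All 8 mesothelial markers had log2 fold changes below 0, with a median of -0.80, and Wt1 alone passed, with -1.30. Their summed level was 63.22 to 169.5 FPKM in Mrp4 KO libraries and 166.7 to 266 FPKM in WT libraries. Of 5 brown adipocyte markers tested Elovl3 was higher, with 4.06, at a mean of 3.203 FPKM in Mrp4 KO libraries and 0.18 FPKM in WT libraries. The other 4 did not pass. The 6 brown adipocyte markers listed summed to 22.65 to 52.41 FPKM in Mrp4 KO libraries and 20.22 to 54.72 FPKM in WT libraries. Of 2 skeletal muscle markers tested Actn3 was lower, with -1.45 (adjusted p = 0.0482, edgeR). Its mean level was low, at 0.78 FPKM in Mrp4 KO libraries and 2.03 FPKM in WT libraries. The call of Actn3 was lost in 6 of the 8 fits without a library (all but those without Mrp4 KO library 2 and WT library 2) and under 7 other settings. Acta1 went the other way and did not pass, with 0.85 (adjusted p = 0.385, edgeR). It averaged 57.67 FPKM in Mrp4 KO libraries and 30.91 FPKM in WT libraries. The 7 skeletal muscle markers summed to 35.25 to 109.9 FPKM in Mrp4 KO libraries and 12.04 to 74.5 FPKM in WT libraries. Of 2 kidney markers tested, Aqp2 and Lrp2, neither passed in edgeR with all libraries, also at an unadjusted p under 0.05, nor with DESeq2. Among the fits without a library, Lrp2 passed only without Mrp4 KO library 1 (adjusted p = 0.00652, edgeR). The part of these cells in the changes of the breakdown genes was not tested.

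The profile of Dbt, which had the lowest p of the 10 genes, was set beside those of 8957 genes that averaged 5 FPKM or more. Likeness was measured as the root mean square difference of centred log2 counts scaled to library size over the 8 libraries. The 5 nearest were Ubqln1 (0.0428), Crat (0.05), Oma1 (0.0534), Huwe1 (0.0578) and Ncoa4 (0.0596), where Dbt's own SD over the libraries was 0.267. Bckdhb stood at rank 18 with 0.075 and Bckdha at rank 34 with 0.0858, so both subunits followed Dbt closely. Ppm1k averaged below 5 FPKM and was not compared. The measure also counts a fall of another size as unlike. Ivd stood at rank 133 with 0.108, and the rest of the 10 genes further off, from Bckdk at rank 707 to Mccc1 at rank 2623. These points share the libraries and the difference between the groups, and are given as a description.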

How the data were processed

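Polyadenylated RNA of epididymal white adipose tissue was extracted with Trizol and read as paired 100-base reads on the BGISEQ-500, per the labels' protocols. The submitters' processing notes name mm9 and Bowtie2; no version and no counting tool is given in the sources used here. Each library's file, per its header, holds expected counts, FPKM and transcript lengths by gene, all deposited by the authors. Expected counts as deposited are estimates, of which 91.99% to 92.59% per library were whole, and they were rounded here. No molecular identifiers are mentioned in the labels.

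Genes were kept by edgeR's filterByExpr, which left 14257 and removed 4434, and compared with edgeR 4.0.16 in R 4.3.3 (TMM scaling, robust quasi-likelihood fit with genotype alone, two-sided, Benjamini-Hochberg over all tested genes, threshold 0.05); limma 3.58.1 and DESeq2 1.42.0 were alternatives. SE is the log2 fold change divided by the root of the F statistic. Other settings were another scaling, filter or tool, FPKM in place of counts, the replicate number as a block, and each library left out in turn. The pipeline was tested on simulated data with 200 changed genes. Their changes were larger in size than those of the 10 genes, so calls of changes as small as these were not examined. Libraries of a group differed by 3.96 to 8.11 times the counting noise (median squared difference over genes), so no pair was a repeat deposit of one library. The 10 genes and the gene lists were chosen with earlier results of these data known. Named besides them are up to 4 genes of each list with the lowest p and a mean of at least 1 FPKM, marker lists being given mainly by counts and sums, together with Abcc4 and the 5 genes nearest to Dbt. Abat, Bcat1, Dld, Slc43a2, Ogdhl, Fabp4, Klf15, Esrra, Ppara, Pparg and Atf4 are named outside this rule. The deposited FPKM table of all samples was not used. Promoters came from RefSeq (GRCm38.p6); no sequence or coordinate of mm9 was used.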

Additional observations from a re-analysis of the deposited data

Results flagged for a closer look

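A library that stood apart from the others of its group was looked for in the FPKM of the 10 genes, 20 groups of 4 in all, with Dixon's 95% critical value for the gap over the range. Chance flags about 1 in 20 groups. Bcat2 was high in Mrp4 KO library 5, at 94.48 FPKM, with a gap of 0.91 of the range. Mccc1 was high in the same library, at 52.35 FPKM, with 0.881. Mccc2 was low in Mrp4 KO library 2, at 32.18 FPKM, with 0.834, although the 4 values of this gene lay close together. No WT library stood apart in this way for any of the 10 genes.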

How the results depend on the processing

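The count of 7 breakdown genes that were lower was the same with every other scaling and low-count filter tried, with limma-voom, with limma on FPKM and with the liver markers left out, and was 8 with DESeq2. Of all 14257 genes tested, 1148 were lower in the fit used above, 1529 with DESeq2 and 680 with library size alone. Leaving out 1 library gave 5 to 8 lower breakdown genes, and 1172 to 3683 genes called over all tested against 2606 with all libraries. The lowest total was without WT library 4 and the highest without WT library 2. With the replicate number as a block, 141 genes were called and 0 of the 10, whose 7 called genes then had adjusted p-values of 0.0582 to 0.104. Mrp4 KO library 5 and WT library 3 have no partner of their number, so that fit compares numbers 1, 2 and 4 alone. Log2 fold changes of the 7 genes were no smaller in size with the block, from -0.81 for Mccc2 to -0.38 for Bckdhb. The labels do not say that a number marks a shared origin, and same-numbered libraries did not deviate together (correlations of 0.011, -0.075 and -0.128 for numbers 1, 2 and 4, none best with its own number). Ppm1k turned to -0.05 without WT library 1, within -0.05 to 0.24 over the 8 fits. Exact permutation p-values of ratios without 1 library were not adjusted over the 4 pairs, and 4 against 3 libraries allow none below 0.0286. The log2 difference of the Bckdk to Ppm1k ratio was -0.86 to -0.43 without 1 library, and passed an unadjusted exact p of 0.05 without WT library 3. That of Bckdk to Bckdha was -0.22 to -0.13 and passed, also unadjusted, without Mrp4 KO library 1. That of Bckdhb to Bckdha was -0.02 to 0.07, with -0.02 without Mrp4 KO library 1 or 4 or WT library 1. The cause was not tested in any of these. Of 190 alternative values of single breakdown genes, 168 kept direction and side of the threshold, 18 lost the call, 3 gained one and 1 turned. Called as higher of all genes called were 73.3% to 74.1% with library size alone or FPKM, against 55.9%. With 4 libraries a group, modest changes such as that of Hibadh could not be resolved.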
